A study of Mus musculus with 4 samples.

Results

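Replication-dependent and linker histone genes were measured in whole mammary fat pad (MFP) of aged and young mice. Members were taken by gene symbol, as every row of the count table named for an H1, H2A, H2B, H3 or H4 gene of the histone clusters or for a numbered linker histone, with rows marked as pseudogenes by the ending -ps left out. This gave 70 of 55487 genes, of which 10 encode linker histone H1, 19 H2A, 17 H2B, 12 H3 and 12 H4. Of these, 56 lie on chromosome 13, 10 on chromosome 3, 2 on chromosome 6 and 2 on chromosome 15. H2ac14 and Hist1h2al carry no -ps in their names but are annotated as pseudogenes.

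All 4 samples came from female mice labelled C57BL/6J. The 2 aged samples were from animals of 14 months and the 2 young samples from animals of 8 weeks, and the samples are called biological replicates in the labels. Fat pads were lysed without separating cell types, and RNA was sequenced after removal of ribosomal RNA rather than by selecting poly(A) tails, on strand-specific libraries. Raw read counts per gene, as the authors deposited them, sum to between 68803304 and 98402403 per library.

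One young library stood apart from the rest. On the first principal component of all genes tested, young replicate 1 lay at 122 and the other 3 libraries below 0. Its summed level of 8 B cell markers was 597 CPM (the count scaled to the size of its library), with 3.83 in young replicate 2, 7.46 in aged replicate 1 and 78.5 in aged replicate 2. The summed level of 10 T cell markers ran in the same order of libraries at the top, with 942 CPM in young replicate 1, 78.7 in aged replicate 2, 15.1 in aged replicate 1 and 8.69 in young replicate 2. Each of these 18 lymphocyte markers was highest in young replicate 1, against 34.1% of all genes, and none was at 0 over the 4 libraries. Fold changes of the members, classes and lists are therefore given also without that library. Skeletal muscle markers were also uneven, with summed levels of 42642 and 67644 CPM in aged MFP and 11098 and 15365 CPM in young MFP. All 8 adipocyte markers were higher in both aged than in both young libraries (9991 to 12518 CPM summed in aged MFP and 7985 to 8326 in the young). The same held for all 12 skeletal muscle markers and all 6 red cell markers tested, against 23.3% of all genes. Mammary epithelium markers summed to 1725 and 1676 CPM in aged MFP and to 934 and 2248 CPM in young MFP, in the order of replicates 1 and 2. Of 6 germinal centre B cell markers tested, 2 were highest in young replicate 1. The part of these cell types in the histone values was not tested.

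Histones H2A, H2B, H3 and H4 form the protein core around which DNA is wrapped, and linker histone H1 binds the DNA between such cores. Most of their genes are transcribed mainly in S phase of the cell cycle, when new DNA needs packing, and their messenger RNAs end in a conserved stem-loop in place of a poly(A) tail. Some histone genes, among them the linker histones H1f0 and H1f10 and the replacement variants, are used outside S phase and make polyadenylated RNA, and can be read in resting as well as dividing cells.

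The stem-loop that carries this difference in RNA ends was looked for in the annotated transcripts (GENCODE M21, GRCm38), in the first 100 bases after the stop codon. It was found in 43 members, beginning 21 to 58 bases after the stop codon. Of members with at least 30 bases annotated there, 81.1% held it (43 of 53), and of other protein-coding genes 0.0239% did (5 of 20955). Genes annotated as coding sequence alone could not be searched. More forms were found than are shown here. The 5 examples below are each of a different form, with 5 bases on either side and the paired arms of the stem in capitals. They are at chr13:23739512-23739527 (H1f2, plus strand), chr13:22036300-22036315 (H2bc12, plus strand), chr3:96220418-96220433 (H2ac20, minus strand), chr13:23531458-23531473 (H4c8, plus strand) and chr13:21735437-21735452 (H4c11, plus strand), the positions being those of the stem-loop without the added bases.
H1f2: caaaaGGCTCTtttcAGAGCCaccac
H2bc12: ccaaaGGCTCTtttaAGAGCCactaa
H2ac20: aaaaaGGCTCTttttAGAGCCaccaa
H4c8: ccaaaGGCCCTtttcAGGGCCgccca
H4c11: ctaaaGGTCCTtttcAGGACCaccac
The arms divide the classes. All 32 stem-loops of H1, H2A, H2B and H3 genes opened with GGCTCT, and all 11 of H4 genes opened with another arm, GGCCCT in 9 and GGTCCT in 2.

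Histone RNA was a small part of each library and was highest in young replicate 1. The 70 members together held 551.7 and 745.7 CPM in aged replicates 1 and 2, and 1052 and 546.0 CPM in young replicates 1 and 2. Their share of all counts was 0.0537% and 0.0675% in aged MFP and 0.111% and 0.0586% in young MFP. The mean was 0.81 times as high in the aged as in young MFP, at 649 ± 137 against 799 ± 358 CPM (SD, n = 2 per age). Both aged libraries lay between the 2 young libraries, so the ages overlapped. Without young replicate 1 the ratio was 1.19. An exact permutation test of 2 samples against 2 cannot give a two-sided p below 0.333, so no summed level could pass a threshold of 0.05. In RNA of whole tissue, fewer dividing cells and less histone RNA in each cell cannot be told apart.

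The spread between the young libraries differed by class. Summed H1 RNA was 295.4 and 377.8 CPM in aged MFP and 393.9 and 282.1 CPM in young MFP, in each case in the order of replicates 1 and 2. Summed H2A RNA was 14.3 and 24.8 CPM in aged MFP and 70.4 and 16.4 CPM in young MFP. Summed H2B RNA was 67.9 and 103.8 CPM in aged MFP and 167.4 and 75.4 CPM in young MFP. The young replicates thus differed 1.40-fold in H1, 4.29-fold in H2A and 2.22-fold in H2B. Summed H3 RNA was 27.9 and 52.1 CPM in aged MFP and 121.4 and 34.3 CPM in young MFP, a 3.54-fold difference between the young replicates. Summed H4 RNA was 146.1 and 187.2 CPM in aged MFP and 298.7 and 137.9 CPM in young MFP, a 2.17-fold difference. In all 5 classes young replicate 1 was the highest library and aged replicate 2 the next. The aged replicates differed less, by 1.28-fold in H1 and H4, 1.53-fold in H2B, 1.73-fold in H2A and 1.87-fold in H3.

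**Figure D1:**
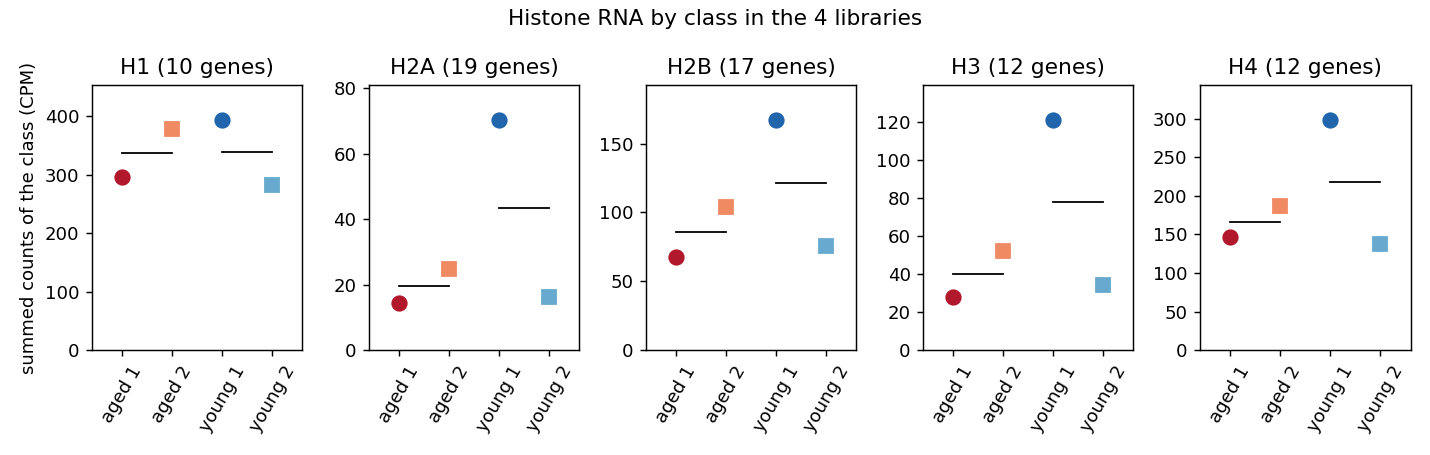
Summed counts of each histone class in CPM (vertical axes, each from 0) in the 4 libraries; points are libraries and black lines the mean of each age. Young replicate 1 is the highest point in every panel, while young replicate 2 lies at or near the level of aged replicate 1.

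The ratio of the aged to the young mean was 1.00 for H1, 0.45 for H2A, 0.71 for H2B, 0.51 for H3 and 0.76 for H4. Leaving out young replicate 1 brought the classes together, at 1.19 for H1, 1.19 for H2A, 1.14 for H2B, 1.17 for H3 and 1.21 for H4. The order of the classes in the comparison of all 4 libraries therefore followed how far young replicate 1 stood above young replicate 2. The aged mean in the ratios without young replicate 1 still held aged replicate 2, the next highest library in every class. Against aged replicate 1 alone, young replicate 2 was 0.95-fold in H1, 1.14-fold in H2A, 1.11-fold in H2B, 1.23-fold in H3 and 0.94-fold in H4.

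The make-up of histone RNA also differed in the same library. H1 took 53.5%, 50.7% and 51.7% of all member counts in aged replicate 1, aged replicate 2 and young replicate 2, and 37.4% in young replicate 1 (95% Wilson interval 37.1 to 37.8%, counting error only). H2A took 2.59%, 3.32% and 3.00% in the first 3 of these and 6.69% in young replicate 1. H3 took 5.06%, 6.99% and 6.28%, and 11.5% in young replicate 1. H2B and H4 shares moved less, from 12.3% to 15.9% and from 25.1% to 28.4%. H1f0 alone made up 20.3%, 18.6% and 20.9% of member counts in those 3 libraries and 8.79% in young replicate 1. PCR copies were not marked in these libraries, so such intervals and count floors cover counting error only.

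Of the 70 members, 57 passed the filter on low counts and were tested across the table of 22485 genes with edgeR's quasi-likelihood test (H1 7, H2A 13, H2B 14, H3 11 and H4 12). No member was called at an adjusted p of 0.05, as was no gene of the whole table (0.0%). At an unadjusted p under 0.05 the count was 0 members, against 10.5% of all genes tested, of which 3.31% were lower and 7.24% higher in aged MFP. The smallest p was 0.0561, for H1f3, with an adjusted p of 0.485 in edgeR. DESeq2 also called 0 members, against 3.95% of the genes it tested, with a smallest adjusted p of 0.168. It gave 3 members an unadjusted p under 0.05 (H1f3, H2ac13 and H4c6), and the share of all genes at that threshold was not counted. The log2 fold change of aged over young was negative in 51 of 57 members, against 53.0% of all genes, with a median of -1.11 beside -0.04 over all genes. By class the median was -0.10 for H1, -1.59 for H2A, -1.26 for H2B, -1.44 for H3 and -0.87 for H4, with 4 of 7, 12 of 13, 13 of 14, 11 of 11 and 11 of 12 members negative.

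These signs depended on young replicate 1. Without it 42 of the 57 members had a positive and 15 a negative log2 fold change. The median was 0.21, with class medians from 0.14 in H1 to 0.24 in H2B. Aged replicate 2, which was above aged replicate 1 in 55 of the 57, stayed in this fit. Only H4c3, with a log2 fold change of 0.51, then had an unadjusted p under 0.05 in edgeR, against 12.1% of all genes, and 0 members were called. Without young replicate 2, 54 members were negative with a median of -1.78, 37 had an unadjusted p under 0.05 in edgeR, against 27.9% of all genes, and 0 were called.

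Both aged libraries were below both young libraries in 4 of 57 members, H1f3, H2ac21, H2bc21 and H3c15, against 22.8% of all genes. Both were above in 1 member, H1f10, against 23.3% of all genes, and the ages overlapped in the other 52. These 5 members were chosen from their values. Young replicate 1 was the highest library in 51 of 57 members, against 34.1% of all genes. The full order of young replicate 1, aged replicate 2, young replicate 2 and aged replicate 1 was found in 36 of 57, against 5.84% of all genes. This order was taken from the values of the members, and many members share sequence, so the count is a description.

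**Figure D2:**
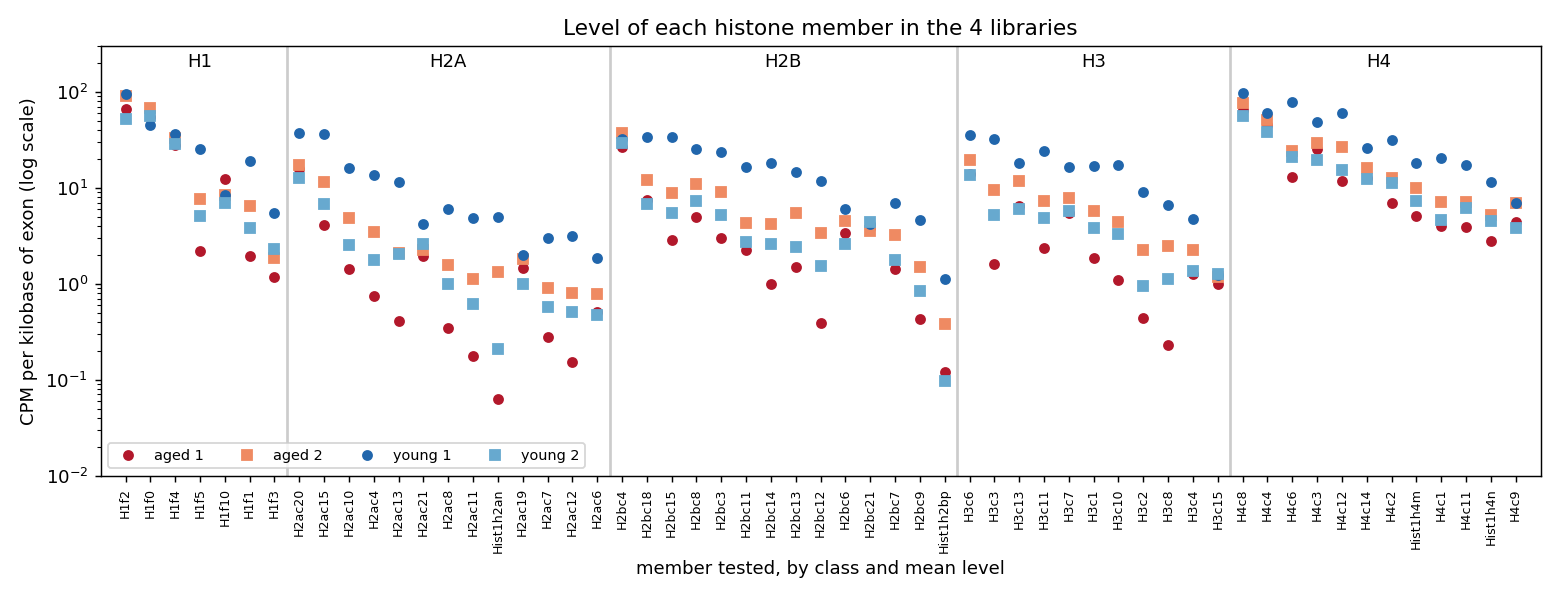
Level of each of the 57 members tested, in CPM per kilobase of annotated exon (log scale), in the 4 libraries, grouped by class and ordered by mean level. Dark blue circles (young 1) sit above the other points in 51 members, and the 4 points lie close together for H1f0, H2bc4, H2bc21 and H3c15.

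Levels are compared between genes per kilobase of annotated exon, which falls where a long transcript end is annotated and little read. H1f2, a somatic linker histone, led with 65.8 and 90.7 CPM per kb in aged MFP and 94.0 and 52.1 in young MFP. H4c8 was next with 65.0 and 76.8 in aged MFP and 96.7 and 55.5 in young MFP. H1f0 came after these at 54.5 and 67.4 in aged MFP and 45.0 and 55.5 CPM per kb in young MFP. The ranges of these first 3 members overlapped over the 4 libraries, as did those of H1f4 and H2bc4 further down. The lowest member tested, Hist1h2bp, had 0.12 and 0.38 in aged MFP and 1.12 and 0.10 CPM per kb in young MFP.

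Among linker histones, 3 members with much RNA in every library differed little between ages. H1f2 had 102.6 and 141.6 CPM in aged MFP and 146.7 and 81.3 CPM in young MFP, and its ages overlapped (log2 fold change 0.10 ± 0.35 SE, edgeR adjusted p = 0.918). H1f4, another somatic H1, had 54.0 and 63.3 CPM in aged MFP and 70.8 and 54.7 CPM in young MFP (-0.10 ± 0.19). H1f0 had 112.0 and 138.6 CPM in aged MFP and 92.5 and 114.0 CPM in young MFP (0.28 ± 0.19, edgeR adjusted p = 0.579), and young replicate 1 was its lowest library. H1f10, the other linker histone used outside S phase, had 15.0 and 10.3 CPM in aged MFP and 10.2 and 8.46 CPM in young MFP, the only member tested that was higher in both aged libraries (0.44 ± 0.28, edgeR adjusted p = 0.563). The log2 fold changes without young replicate 1 were 0.59 for H1f2, 0.10 for H1f4, 0.14 for H1f0 and 0.58 for H1f10. Exons of H1f4 overlap those of H2bc6 (older symbol Hist1h2be) on the same strand, so reads of these genes may be split.

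The other somatic linker histones had the wider spread of the core histones. H1f5 had 132 and 500 counts in aged MFP and 1534 and 280 counts in young MFP (-1.64 ± 1.02, edgeR adjusted p = 0.562). H1f1 had 117 and 427 counts in aged MFP and 1163 and 209 in young MFP (-1.45 ± 1.01, edgeR adjusted p = 0.585). In both genes aged replicate 2 exceeded young replicate 2, and without young replicate 1 the log2 fold changes were -0.07 and 0.14. H1f3 had 714 and 1211 counts in aged MFP and 3343 and 1250 in young MFP (-1.37 ± 0.52), and -0.60 without young replicate 1. It is annotated with 7425 bases of exon, of which 4884 follow the stem-loop, more than any other member.

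In H2A, which pairs with H2B in the core, H2ac20 had the highest level per length and H2ac13 the largest estimate. H2ac20 had 8.12 and 8.92 CPM in aged MFP and 19.3 and 6.56 CPM in young MFP (-0.60 ± 0.56, edgeR adjusted p = 0.667). H2ac15 had 1.61 and 4.47 CPM in aged MFP and 14.4 and 2.68 CPM in young MFP (-1.49 ± 0.99), and H2ac10 had 46 and 170 counts in aged MFP and 530 and 74 in young MFP (-1.59 ± 1.12). H2ac13, whose estimate was the largest of all members tested, had 13 and 73 counts in aged MFP and 365 and 59 in young MFP (-2.42 ± 1.21, edgeR adjusted p = 0.529). H2ac11 had 7 and 48 counts in aged MFP and 192 and 22 in young MFP (-2.07 ± 1.35, edgeR adjusted p = 0.572). In both of these the aged library with more reads was above the young library with fewer. Without young replicate 1 the log2 fold change was -0.70 for H2ac13, 0.07 for H2ac11, 0.38 for H2ac20, 0.18 for H2ac15, 0.30 for H2ac10 and -0.30 for H2ac21. H2ac21 differed by less and did not overlap, with 70 and 88 counts in aged MFP and 154 and 84 in the young before scaling, or 0.86 and 0.99 against 1.88 and 1.14 CPM (-0.71 ± 0.41).

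In H2B, H2bc4 had more RNA per length than any other member of its class and overlapped between ages. It had 30.9 and 43.2 CPM in aged MFP and 36.9 and 34.1 CPM in young MFP (0.06 ± 0.22, edgeR adjusted p = 0.917). H2bc21, for which replication-independent use is known, had 9.86 and 9.24 CPM in aged MFP and 10.8 and 11.4 CPM in young MFP (-0.22 ± 0.19, edgeR adjusted p = 0.643). These 2 genes stood apart from H2bc14, with 43 and 194 counts in aged MFP and 774 and 100 in young MFP (-2.0 ± 1.20, edgeR adjusted p = 0.557). H2bc12 had 15 and 143 counts in aged MFP and 457 and 54 in young MFP (-1.81 ± 1.43), and its aged replicates differed 8.75-fold. H2bc15 had 89 and 301 counts in aged MFP and 1049 and 154 in young MFP (-1.73 ± 1.07). H2bc18 had 233 and 404 counts in aged MFP and 1051 and 188 in young MFP (-1.06 ± 0.84), and all of its 50-base stretches are found in other genes. With young replicate 1 left out, the log2 fold change of H2bc14 was -0.0018, and the others were 0.29 for H2bc12, 0.099 for H2bc15, 0.53 for H2bc18, 0.12 for H2bc4 and -0.25 for H2bc21.

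In H3, which pairs with H4, all 11 members tested had a negative estimate and none passed. H3c6 led the class by length with 11.5 and 16.3 CPM in aged MFP and 29.3 and 11.4 CPM in young MFP (-0.55 ± 0.52, edgeR adjusted p = 0.673). H3c3 had 82 and 527 counts in aged MFP and 1663 and 242 in young MFP (-1.77 ± 1.25), and H3c13 had 259 and 505 in aged MFP and 719 and 215 in young MFP (-0.40 ± 0.65). The largest estimates were equal to 2 decimals, with 22 and 124 counts in aged MFP and 462 and 43 in the young for H3c2 (-1.90 ± 1.37, edgeR adjusted p = 0.590). For H3c10 they were 37 and 160 in aged MFP and 578 and 100 in young MFP (-1.90 ± 1.09, edgeR adjusted p = 0.549). Leaving out young replicate 1 gave log2 fold changes of 0.51 for H3c2, -0.27 for H3c10, 0.29 for H3c6, 0.08 for H3c3, 0.60 for H3c13 and -0.24 for H3c15. H3c15 had 82 and 107 counts in aged MFP and 103 and 96 in young MFP (-0.21 ± 0.33, edgeR adjusted p = 0.794).

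In H4, H4c8 and H4c4 had the highest levels per length, and their ages overlapped. H4c8 had 30.5 and 36.1 CPM in aged MFP and 45.5 and 26.1 CPM in young MFP (-0.10 ± 0.32, edgeR adjusted p = 0.903). H4c4 had 51.2 and 57.7 CPM in aged MFP and 68.4 and 43.5 CPM in young MFP (-0.04 ± 0.26, edgeR adjusted p = 0.958). H4c6, next in level per length, had 5.0 and 9.46 CPM in aged MFP and 30.4 and 8.1 CPM in young MFP (-1.41 ± 0.75, edgeR adjusted p = 0.537). H4c1 had 176 and 342 counts in aged MFP and 910 and 183 in young MFP (-1.18 ± 0.82, edgeR adjusted p = 0.585). Young replicate 2 lay below aged replicate 1 for H4c8 and H4c4 and above it for H4c6 and H4c1. In the fit without young replicate 1 the log2 fold change was -0.17 for H4c6, 0.27 for H4c1, 0.35 for H4c8 and 0.32 for H4c4.

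The 13 members not tested had at most 10 counts in any library. Of these, H2ac18, H3c14, H2bc1, H2ac1 and H1f7 were at 0 in every library, where 3 counts correspond to 0.0337 to 0.0407 CPM. H2bc1 and H2ac1 encode testis forms of H2B and H2A. H1f6, the testis linker histone, had 3 and 7 counts in aged MFP and 10 and 6 in young MFP. H2ac18 and H3c14 are duplicates of H2ac19 and H3c15 on chromosome 3, and every 50-base stretch of their annotated transcripts also occurs in another gene. Their zeros are therefore uncertain, as is the level of H2ac19, with 63 and 84 counts in aged MFP and 87 and 39 in young MFP. The level of H3c15 is uncertain too, as 63.5% of its 50-base stretches occur in other genes.

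Histone genes share much sequence. The median member tested had 49.7% of its 50-base stretches in common with transcripts of other genes, 5.68% in H1 and 67.1% in H2A, and the setting used for reads with several matches is not given in the sources used here. Members sharing at least 50% had a median log2 fold change of -1.50 (28 tested), and those sharing less -0.86 (29 tested). These medians were 0.26 and 0.19 without young replicate 1. H1f5 and H1f1, which share no such stretch, had the same order of libraries as most members, and H2bc21, the other member tested that shares none, did not. Exons of another gene overlap 24 members on the opposite strand and 7 on the same strand.

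The spread within each age was shared between members. The ratio of young replicate 1 to young replicate 2 had a median of 3.95-fold over the 57 members, and ran from 0.81-fold in H1f0 to 23.7-fold in Hist1h2an, which had 158 and 6 counts. Aged replicate 2 was above aged replicate 1 in 55 of the 57, with a median of 1.9-fold over the 56 members that had more than 3 counts in both. Over all genes the median log2 ratios were -0.01 and 0.00. The members with the larger ratio in the young also had the larger ratio in the aged, with a Pearson r of 0.83 and a Spearman rho of 0.89 over 56 members, beside 0.40 and 0.26 over 21716 genes. These points share the same 4 libraries, many share sequence, and low counts widen the ratios, so the correlation is a description. Both replicates of an age are single samples, so the ratios carry no error of their own.

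**Figure D3:**
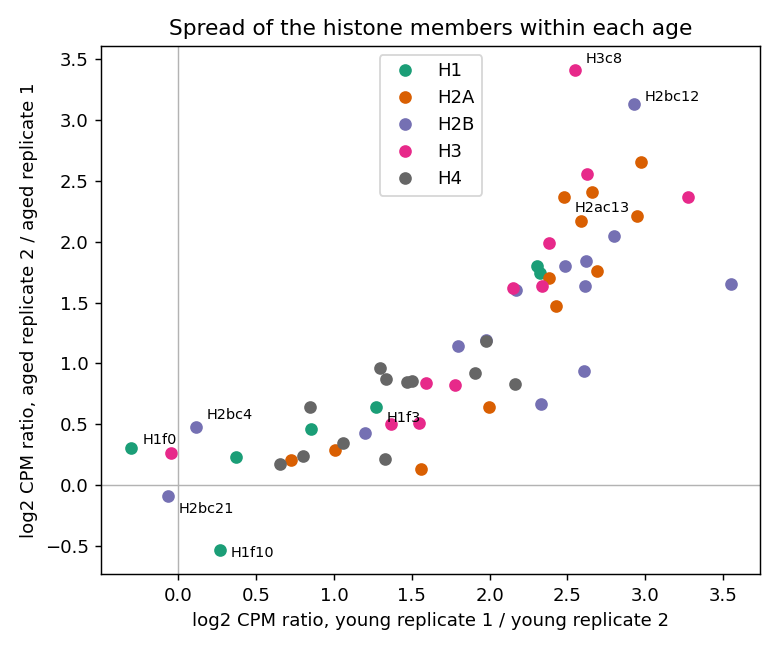
Log2 ratio of CPM between the young replicates (horizontal) against that between the aged replicates (vertical), 1 point per member, coloured by class; Hist1h2an, with 2 counts in aged replicate 1, is left out of the 56 points. The cloud climbs from H1f0, H2bc4 and H2bc21 near 0 on both axes to H2A, H2B and H3 genes at high values on both.

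Members differed by how their RNA is annotated to end. In 22 members the annotated transcript ends within 100 bases of the stem-loop, in 28 it runs further or is spliced, and in 20 no stem-loop lies in the annotated transcript, most of them annotated as coding sequence alone. The 28 include 7 members, among them H1f0, H1f10, H2bc4 and H2bc21, in which no stem-loop was found. Summed RNA of the 28 was 475.2 and 604.6 CPM in aged MFP and 705.2 and 451.5 CPM in young MFP. Summed RNA of the 22 was 57.4 and 92.9 CPM in aged MFP and 207.6 and 65.3 CPM in young MFP. Summed RNA of the 20 was 19.1 and 48.2 CPM in aged MFP and 139.1 and 29.1 CPM in young MFP. Young replicate 1 was thus 1.56-fold above young replicate 2 for the longer forms, 3.18-fold for those ending at the stem-loop and 4.78-fold for those with none annotated. The median log2 fold changes were -0.43 over 23 tested, -1.44 over 19 and -1.59 over 15, and without young replicate 1 they were 0.21, 0.21 and 0.14. The groups also differ in class, level and shared sequence, with a median of 24.6% of 50-base stretches shared in the first, 59.4% in the second and 86.4% in the third.

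**Figure D4:**
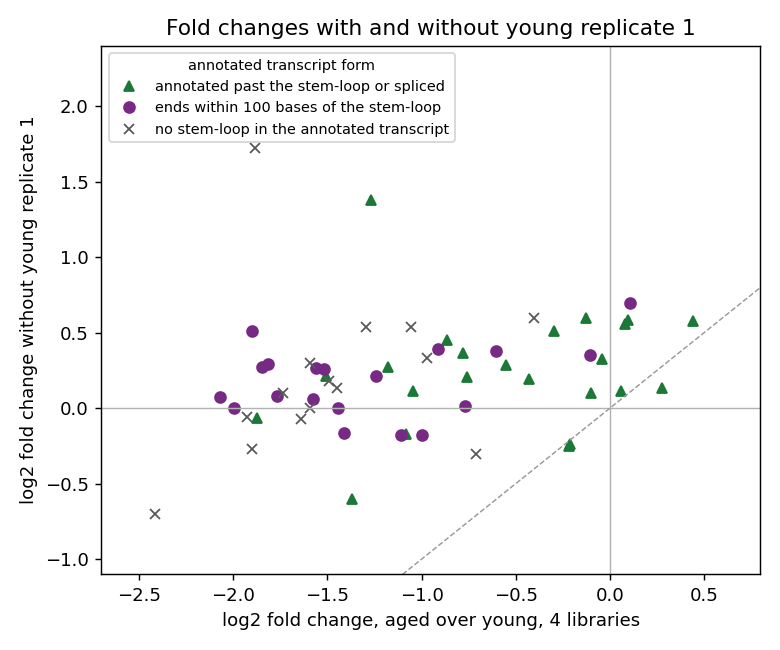
Log2 fold change of aged over young with all 4 libraries (horizontal) against that without young replicate 1 (vertical), 1 point per member, marked by annotated transcript form; the dashed line marks equal values. Most points move from negative values on the horizontal axis to values around or above 0 on the vertical axis.

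Many H2A and H2B genes lie head to head and share the stretch between their starts. There were 14 such pairs within 1000 bases, 13 of them of an H2A with an H2B gene, with starts 176 to 306 bases apart. In 9 of the 13 both genes were tested. Over these 9 the median difference between partners in the log2 ratio of young replicate 1 to young replicate 2 was 0.41. In 7 of the 9, set apart after their values were seen, both genes had log2 ratios of 1.79 to 4.57, and the partners differed by at most 1.02. All tested H2A and H2B members had median log2 ratios of 2.48 and 2.41, and partners were not compared with unpaired genes. The other pairs were uneven. H2ac20 was 2.94-fold higher in young replicate 1 and its partner H2bc21 0.95-fold, and H2ac6 was 3.99-fold higher while its partner H2bc4 was 1.08-fold.

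Promoter sequence was read from RefSeq (GRCm38.p6) for 62 of the 70 members, as the 250 bases before the gene's start in RefSeq, searched on both strands. The CCAAT box (letters CCAAT) was present in 16 of 16 H2A, 15 of 15 H2B, 8 of 10 H3, 7 of 10 H1 and 3 of 11 H4 promoters, and in 34.5% of 27025 promoters of all genes. The TATA box (TATAAA) was present in 45.2% of member promoters and 13% of all. The octamer (ATTTGCAT) was present in 6 of 16 H2A and 6 of 15 H2B promoters, in 0 of the other classes and in 1.61% of all promoters. Windows of head-to-head partners can overlap, so the same match can count for an H2A and an H2B gene. The octamer of H2ac12 and H2bc12 is such a case, and the H2A and H2B counts are not separate. No motif contains another, although neighbouring matches can share end letters, and a match is a description of the sequence. The promoters of the member with the largest estimate and of the linker histone whose lowest library was young replicate 1 are shown, with any of these motifs in capitals. H2ac13 is at chr13:21716162-21716411 (plus strand) and H1f0 at chr15:79027962-79028211 (plus strand).
H2ac13: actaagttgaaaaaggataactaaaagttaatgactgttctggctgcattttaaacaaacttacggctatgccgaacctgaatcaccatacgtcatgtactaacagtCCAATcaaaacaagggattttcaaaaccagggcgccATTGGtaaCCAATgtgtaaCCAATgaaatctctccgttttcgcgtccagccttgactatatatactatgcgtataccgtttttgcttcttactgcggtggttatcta
H1f0: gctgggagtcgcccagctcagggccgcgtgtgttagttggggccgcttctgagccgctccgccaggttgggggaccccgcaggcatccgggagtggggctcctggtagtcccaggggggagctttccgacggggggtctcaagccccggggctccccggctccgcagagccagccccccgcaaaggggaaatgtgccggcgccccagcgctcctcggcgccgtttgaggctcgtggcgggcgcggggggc
The H2ac13 sequence holds the CCAAT letters on both strands, and none of the 3 motifs is in this window of H1f0. GENCODE M21 starts H2ac13 at 21716422, close to the end of its window. It starts H1f0 at 79028450, well past the end of its window at 79028211, and the bases between were not searched. The 2 windows are therefore not placed alike.

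Related genes outside the clusters gave no call either. Of 10 replacement core histone variants, which are made outside S phase, 8 had a negative log2 fold change with a median of -0.36. Of the 10, 1 had an unadjusted p under 0.05 and 0 were called by edgeR. Over all genes tested, 53.0% were negative and 10.5% had an unadjusted p under 0.05 in edgeR. H3f3b, which encodes H3.3, had 182.3 and 178.9 CPM in aged MFP and 184.2 and 198.6 CPM in young MFP (-0.08 ± 0.13), a narrower spread than that of most clustered H3 genes. Among those, H3c15 was also close between libraries, at 1.00 and 1.20 CPM in aged MFP and 1.26 and 1.30 CPM in young MFP. The clustered H3 genes have far fewer counts than H3f3b, and the part of this in their spread was not tested. H3c6, with 840 to 2401 counts per library, differed 2.57-fold between the young replicates. Cenpa, the H3 variant of centromeres, had 2.53 and 3.93 CPM in aged MFP and 16.4 and 5.65 CPM in young MFP (-1.77 ± 0.62, edgeR adjusted p = 0.466). Hils1, a linker histone of spermatids, had at most 4 counts and was not tested. The median of the variants without young replicate 1 was -0.13, with 6 of 10 negative, and the log2 fold change was -0.14 for H3f3b and -0.81 for Cenpa.

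Of 14 genes that act in histone RNA 3′ processing and decay, 12 were negative with a median of -0.15, 0 at an unadjusted p under 0.05 and 0 called by edgeR. Sympk, a scaffold of the cleavage complex, had 135.5 and 143.4 CPM in aged MFP and 121.9 and 128.3 CPM in young MFP (0.16 ± 0.13). Zfp473, a zinc finger protein of this machinery, had 35 and 47 counts in aged MFP and 67 and 39 in young MFP (-0.49 ± 0.41). Of 15 histone chaperones, 14 were negative with a median of -0.24, 2 at an unadjusted p under 0.05 and 0 called. For both lists the shares over all genes tested were 53.0% negative and 10.5% at an unadjusted p under 0.05 in edgeR. Chaf1b, a subunit of the assembly factor that works behind the replication fork, had 1.96 and 1.71 CPM in aged MFP and 5.53 and 2.93 CPM in young MFP (-1.21 ± 0.42, edgeR adjusted p = 0.463), and its ages did not overlap. Atrx, a chromatin remodeller that deposits H3.3, had 242.9 and 203.0 CPM in aged MFP and 258.0 and 249.4 CPM in young MFP (-0.19 ± 0.16). Without young replicate 1 the medians were -0.03 for the processing genes, with 8 of 14 negative, and -0.15 for the chaperones, with 13 of 15 negative. The log2 fold changes were then 0.12 for Sympk, -0.14 for Zfp473, -0.68 for Chaf1b and -0.16 for Atrx.

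Cell cycle genes were likewise highest in young replicate 1 for the most part. This held in 22 of 24 S phase and 16 of 16 mitosis genes, against 34.1% of all genes. Negative estimates made up 53.0% of all genes tested, and 10.5% had an unadjusted p under 0.05 in edgeR, 3.31% being lower in aged MFP. Of 24 S phase genes, 23 were negative with a median of -0.44, 1 at an unadjusted p under 0.05 and 0 called by edgeR, and their summed level was 212.4 and 249.5 CPM in aged MFP and 413 and 257 CPM in young MFP. Mcm6, a subunit of the replicative helicase, had 23.7 and 25.6 CPM in aged MFP and 41.2 and 29.6 CPM in young MFP (-0.52 ± 0.22). Uhrf1, which acts in copying DNA methylation, had 3.4 and 5.17 CPM in aged MFP and 18.5 and 7.91 CPM in young MFP (-1.63 ± 0.52, edgeR adjusted p = 0.456). Of 16 mitosis genes, 16 were negative with a median of -1.53, 5 at an unadjusted p under 0.05 and 0 called, and their summed level was 24.3 and 55.0 CPM in aged MFP and 154 and 54.3 CPM in young MFP. Mki67, a marker of dividing cells, had 5.82 and 18.2 CPM in aged MFP and 49.6 and 15.4 CPM in young MFP (-1.44 ± 0.83), the same order of libraries as most histone members. Bub1, a checkpoint kinase of mitosis, had 0.31 and 0.54 CPM in aged MFP and 2.60 and 0.91 CPM in young MFP (-2.05 ± 0.69, edgeR adjusted p = 0.461). Without young replicate 1 the medians were -0.18 for S phase and -0.52 for mitosis genes, beside 0.21 for the histone members. The log2 fold changes were then -0.27 for Mcm6, -0.89 for Uhrf1, -0.37 for Mki67 and -1.1 for Bub1. The difference between these lists was not tested.

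RNAs other than histone RNA that end without a usual poly(A) tail were read beside the histone RNA. The list held 17 genes, of which 3 were at 0 in every library. How well the libraries keep such RNA was not tested. Of 13 tested, 12 were negative with a median of -0.76, 3 at an unadjusted p under 0.05 and 0 called by edgeR. DESeq2 called 2, Rn7s1 and Rn7s2, against 3.95% of the genes it tested. Over all genes tested, 53.0% were negative and 10.5% had an unadjusted p under 0.05 in edgeR. Malat1, a nuclear non-coding RNA, had 15934 and 15603 CPM in aged MFP and 18049 and 22059 CPM in young MFP (-0.35 ± 0.56), with young replicate 2 the highest. Snord118, a small nucleolar RNA, had 7 and 27 counts in aged MFP and 105 and 38 in young MFP (-2.19 ± 0.84, edgeR adjusted p = 0.486). The median without young replicate 1 was -0.49, and the log2 fold changes were -0.49 for Malat1 and -1.39 for Snord118.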

How the data were processed

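MFP RNA of 2 aged and 2 young samples was analysed from the raw counts per gene that the authors deposited, whole numbers without normalization. The submitters' processing notes name featureCounts, R 3.6.1, GRCm38 and hg38, and aligner, annotation release, strand setting and handling of reads with several matches are not given in the sources used here. Samples were grouped by the age in their labels, and the labels call replicates biological without saying how many animals each holds, so p-values measure the spread between these samples.

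Genes were kept with filterByExpr, scaled by TMM and tested in edgeR 4.0.16 (R 4.3.3, limma 3.58.1) by the quasi-likelihood test with age as the only term, over 22485 genes, with Benjamini-Hochberg adjustment at 0.05. The standard error is the log2 fold change divided by the square root of F. CPM use TMM-scaled library sizes. DESeq2 1.42.0 was an alternative, beside other scalings, no filter, at least 10 counts in every sample, the newer form of the quasi-likelihood fit, a replicate block and leaving out each sample. The crossed block was chosen after seeing the data. The code was tested on simulated counts.

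Members and gene lists were chosen with earlier results of these data known. Named in each class were the 3 members with the highest mean CPM per kb and the 2 with the largest absolute log2 fold change, H1f0, the 3 testis members, and in each list the genes with the highest mean count and the largest absolute change. H1f3, H1f10, H2ac6, H2ac18, H2ac19, H2ac21, H2bc6, H2bc21, H3c8, H3c14, H3c15, H4c3, H4c11, Hist1h2an, Hist1h2bp, Rn7s1 and Rn7s2 were named after their values were seen.

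Transcript forms, exon lengths and overlaps come from GENCODE M21 and promoters from RefSeq. Class sums were given without a test.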

Additional observations from a re-analysis of the deposited data

How the results depend on the processing

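Under every alternative 0 histone members were called by edgeR or DESeq2, against 0.0% of all genes in edgeR with age as the only term and 3.95% in DESeq2. Where 1 library of an age was left, it was assumed to vary like those of the other age. The number of members at an unadjusted p under 0.05 was 0 with all libraries. The share of all genes at that threshold was not counted for other scalings, no filter or DESeq2. These gave 1 such member with upper quartile scaling, 1 with total counts only, 1 with no filter and 3 with DESeq2. Leaving out single libraries gave 0 to 37 such members and 15 to 55 negative log2 fold changes, the lowest number of negative ones without young replicate 1 and the most p-values under 0.05 without young replicate 2. The medians then ran from -2.73 to 0.18 in H2A, -2.18 to 0.24 in H2B, -2.47 to 0.21 in H3 and -1.41 to 0.23 in H4, and the log2 ratios of summed counts from -1.85 to 0.25, -0.96 to 0.19, -1.60 to 0.22 and -0.84 to 0.27 in the same classes. The medians of replacement variants ran from -0.39 to -0.13 and of mitosis genes from -2.31 to -0.52. The log2 ratio of summed H2B counts was -0.50, and the median over its members -1.26.

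Total counts only, which moved the median of all genes to -0.22, gave 55 negative members and turned H1f2 to -0.086, H2bc4 to -0.13 and Sympk to -0.025. DESeq2 called 2 of the other RNAs without a poly(A) tail, where edgeR called 0, and the cause was not tested.

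Leaving out single libraries turned the sign of named members, with log2 fold changes from -0.25 to 0.59 for H1f2, -0.26 to 0.10 for H1f4, -2.57 to 0.14 for H1f1, -1.17 to 0.38 for H2ac20, -2.40 to 0.18 for H2ac15, -2.73 to 0.30 for H2ac10, -3.92 to 0.075 for H2ac11, -0.20 to 0.27 for H2bc4, -1.78 to 0.53 for H2bc18, -2.77 to 0.099 for H2bc15, -4.09 to 0.29 for H2bc12, -1.06 to 0.29 for H3c6, -3.55 to 0.078 for H3c3, -0.98 to 0.60 for H3c13, -3.52 to 0.51 for H3c2, -0.44 to 0.35 for H4c8, -0.32 to 0.32 for H4c4 and -1.88 to 0.27 for H4c1.

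Same-numbered samples did not deviate together (correlation -0.48 over 22485 genes). With 2 samples per age and young replicate 1 far from the rest, this cannot show whether the numbers pair samples. They were used as names only in the main fit. With the replicate block 51 members were negative with a median of -0.91 and none, 0 of 57, was below an unadjusted p of 0.05. The share of all genes below it was not counted for that block. Under the crossed block 27 members were below an unadjusted p of 0.05, against 11.1% of all genes, and 0 were called.

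Counts on all members summed to between 40291 and 86225 per library, and the 13 members with at most 10 counts in any library could not be tested.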
